A study of Mus musculus with 16 samples.

Results

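The genes described here encode subunits of potassium channels. They were chosen by name: a row of the count table belongs to the set when its gene symbol consists of Kcn, 1 or more lower-case letters and a number, and when its mean level over all 16 libraries was at least 0.5 CPM, the count of read pairs scaled to a common library total with TMM factors. Of 55228 gene symbols 92 matched the name, and 76 of these reached the minimum and are the members. The 16 libraries were made from lower urinary tract mesenchyme, the tissue outside the epithelial lining, of mouse embryos at embryonic day 16.5, which were wild type, untreated and of the outbred stock CD-1. They form 4 groups of 4 libraries: male urethra, female urethra, male bladder and female bladder, where urethra means its pelvic portion. Embryos of each sex were pooled within a litter, 4 litters gave 1 library of each group, and the epithelium was removed with forceps after trypsin. The study asked which genes mark either compartment, and the sex of the pools also allows males to be set against females within a tissue.

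Potassium channels let potassium leave a cell, or in inward rectifiers hold it near the resting potential, and so set how easily nerve and muscle cells fire. Pore-forming alpha subunits assemble around a selectivity filter and open with voltage, calcium, ligands, stretch or acidity, and auxiliary subunits change their gating or their traffic. In smooth muscle of the urinary tract, large-conductance calcium-activated, ATP-sensitive and voltage-gated potassium channels are known to damp contraction.

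The members fall into 5 classes by name. There were 11 calcium-activated or sodium-activated subunits of 12 matching genes, 11 inward rectifiers of 15, 8 2-pore channels of 14, 36 voltage-gated alpha subunits of 40 and 10 auxiliary subunits of 11. The 3 members closest above the minimum were Kcng4 at 0.523 CPM, Kcnj4 at 0.525 CPM and Kcna3 at 0.632 CPM. The 3 genes closest below it were Kcnk4 at 0.442 CPM, Kcnh4 at 0.401 CPM and Kcnj6 at 0.392 CPM. The other 13 genes below the minimum were Kcnk7, Kcnk12, Kcnk15, Kcnk16, Kcnk18, Kcne2, Kcnmb3, Kcnj1, Kcnj9, Kcnj13, Kcng3, Kcna7 and Kcna10. A minimum of 1 CPM would have kept 67 genes, and all 76 members passed the filter of the test.

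The coding sequences show what separates the pore-forming members from the auxiliary ones. The filter signature was searched as 5 codons for threonine or serine, then valine, isoleucine, alanine or leucine, then glycine, then tyrosine, phenylalanine, leucine or glutamate, then glycine. It was found in 63 of 76 members, in GENCODE release M21 transcripts of GRCm38, and the 13 members without it were the Kcnab, Kcne, Kcnip and Kcnmb genes, which form no pore of their own. At 2 places it was found in 7 members, all of them 2-pore channels, whose subunit carries a pair of pore loops; Kcnk1, the remaining 2-pore member, had 1 match. Of 70 signatures 48 had tyrosine, 20 phenylalanine and 2 leucine at the fourth position. The following coding stretches are shown for the 2-pore member with the greatest difference between the tissues, for an inward rectifier that was higher and a silent subunit that was lower in the urethra, and for the pore of the large-conductance calcium-activated channel, with the 5 signature codons in capitals.
Kcnk10, from codon 164 of the coding sequence: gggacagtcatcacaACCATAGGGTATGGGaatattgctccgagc
Kcnk10, from codon 273: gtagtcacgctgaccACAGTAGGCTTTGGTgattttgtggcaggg
Kcnj8, from codon 140: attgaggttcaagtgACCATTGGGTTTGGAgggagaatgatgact
Kcng1, from codon 424: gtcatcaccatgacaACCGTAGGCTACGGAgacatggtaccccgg
Kcnma1, from codon 352: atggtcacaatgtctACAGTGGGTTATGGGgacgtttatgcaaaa
The codon number is that of the first capital codon. The first window of Kcnk10 and those of Kcng1 and Kcnma1 hold a tyrosine codon at the fourth place, and the second window of Kcnk10 and that of Kcnj8 hold a phenylalanine codon.

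Library totals ran from 24447435 to 29698009 counts in urethra libraries and from 18577097 to 22293812 in bladder libraries, so tissue and depth cannot be told apart. The members took 0.0637 to 0.0934% of the counts. Markers of neurons and of epithelium had counts in every library. The summed level of 8 smooth muscle markers was 1598 to 2117 CPM in urethra libraries and 14089 to 17975 CPM in bladder libraries, and all 8 were lower in the urethra (median log2 fold change -3.14). The sum of 9 neuron markers was 1591 to 2583 CPM in urethra and 66.6 to 456 CPM in bladder libraries, with all 9 higher in the urethra (median 3.96) and none at 0. Male bladder replicate 3 stood apart from the other bladder libraries, at 456 CPM of neuron markers against at most 223 CPM in the others. The sum of 10 epithelium markers was 559 to 1903 CPM in urethra and 1655 to 4048 CPM in bladder libraries, and replicates 3 and 4 of the females were the lowest in both tissues. In such bulk samples, fewer cells of a type and less RNA per cell cannot be told apart.

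The share of potassium channel genes that differed between the tissues, 60 of 76 (78.9%), was near that of all tested genes (75%), but more of them were higher than lower in the urethra. Log2 fold changes are of urethra over bladder as the mean of both sexes, from the edgeR quasi-likelihood test with Benjamini-Hochberg adjustment over 18254 genes and a threshold of 0.05. By that test 42 of 76 members were higher in the urethra (55.3%) where 36.5% of all tested genes were, and 18 were lower (23.7%) where 38.5% were. For 16 members no difference passed the threshold. The median log2 fold change of the members was 0.48, and that of all tested genes was -0.03. The median size without regard to sign was 1.24 for the members and 0.42 for all tested genes. At least 2-fold differences that passed the test were found for 32 members higher (12.6% of all tested genes) and 10 lower (9.41%). The minimum of 0.5 CPM was set on the mean of all 16 libraries, so a member could reach it through 1 tissue alone. Kcnk10 averaged 6.82 CPM in urethra and 0.262 CPM in bladder libraries, and Kcne1 0.363 CPM in urethra and 2.93 CPM in bladder libraries. Such members add to the counts and medians of this paragraph, and their part was not tested. No bladder library reached any urethra library in 31 members (22% of all tested genes), and no urethra library reached any bladder library in 12 members (20.3%). Within the 8 pairs of urethra and bladder of the same litter and sex, 39 members were higher in all pairs (31.6% of all tested genes) and 16 were lower in all pairs (31.8%).

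**Figure D1:**
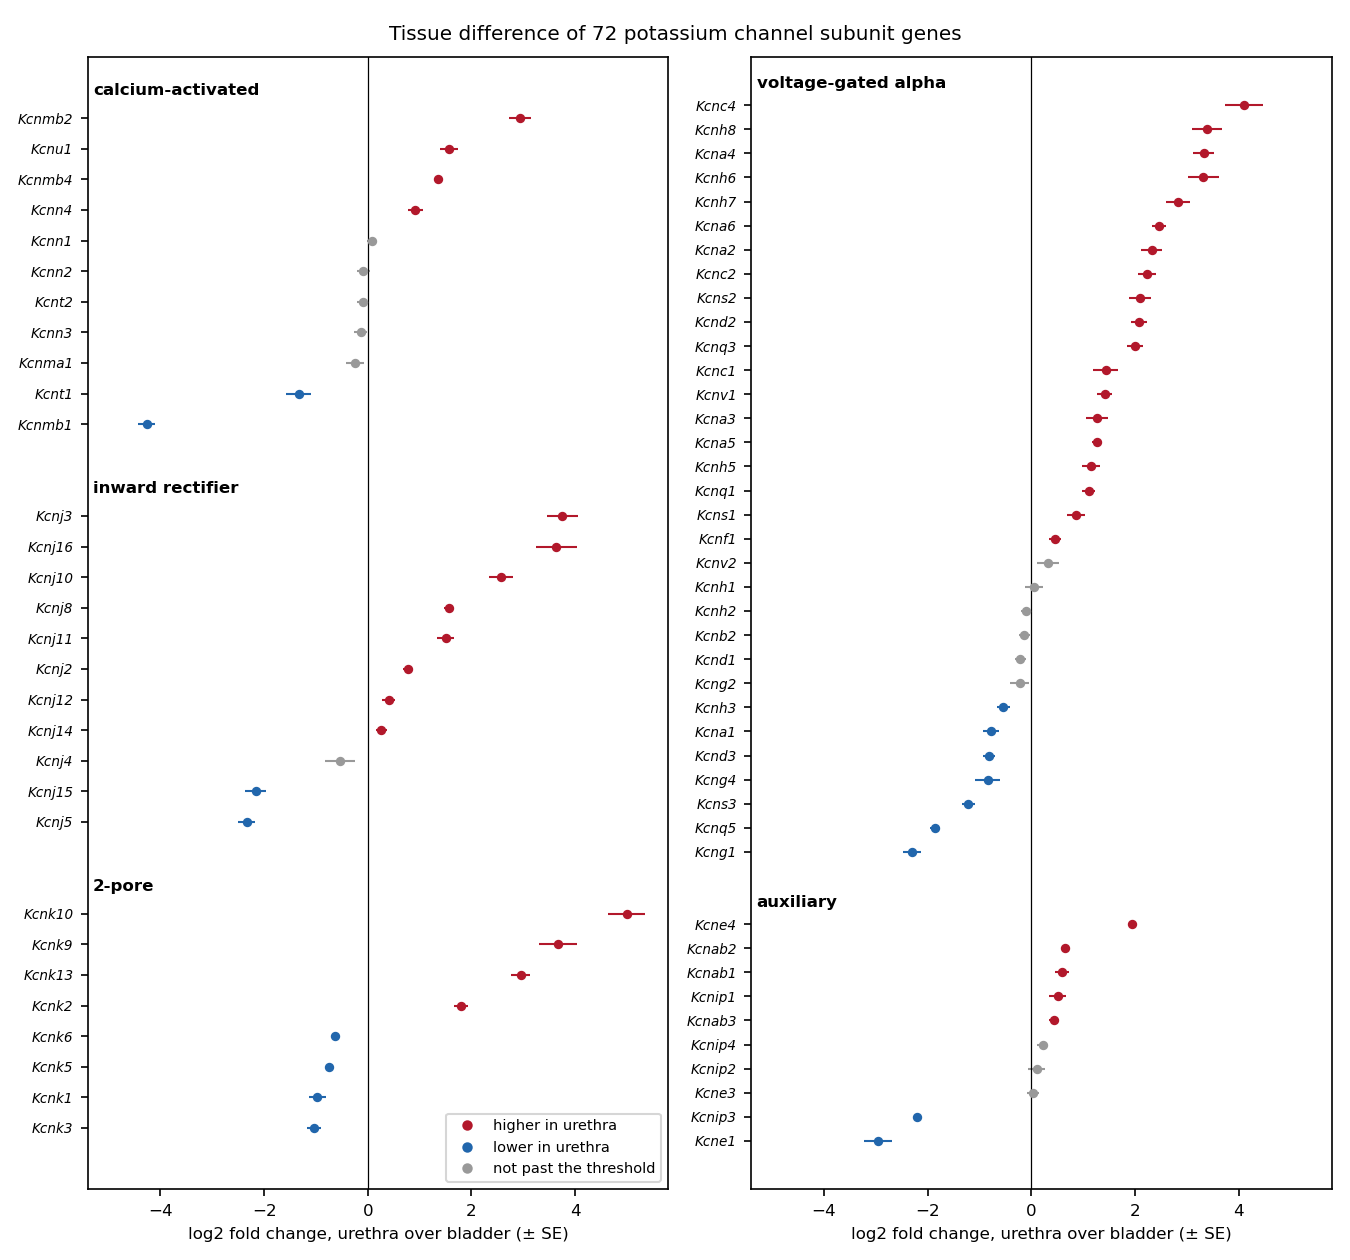
Log2 fold change of urethra over bladder with its standard error for each of 72 members, by class, with 8 libraries per tissue; red points were higher and blue points lower in the urethra by the edgeR test, and grey points did not pass the threshold of 0.05. The extremes are Kcnk10 at 5.0 and Kcnmb1 at -4.26.

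The calcium-activated class held the member with the greatest deficit in the urethra. Its 11 members split into 4 higher, 2 lower and 5 not called. Kcnmb1, at chr11:33963013-33973641 on the plus strand, encodes the beta subunit that raises the calcium sensitivity of the large-conductance channel in smooth muscle. It ran from 2.01 CPM over a median of 3.14 to 4.83 CPM in urethra libraries, against 51.1, 63.3 and 80.3 CPM in bladder libraries. No urethra library came near a bladder library, and the log2 fold change was -4.26 ± 0.16 (SE, edgeR adjusted p = 2.81e-12). Its pore subunit Kcnma1 ran from 24.4 over 35.5 to 54.8 CPM in urethra and from 29.5 over 37.4 to 68.3 CPM in bladder libraries. These ranges overlapped in large part, and the difference of -0.24 ± 0.17 did not pass the edgeR test (adjusted p = 0.200). The ratio of the pore gene to this beta subunit gene was not tested.

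The other beta subunit genes lay on the opposite side. Kcnmb2, whose product inactivates the channel, had 2.1, 3.71 and 4.84 CPM as lowest, median and highest in the urethra and 0.151, 0.465 and 0.833 CPM in the bladder (log2 fold change 2.93 ± 0.21, edgeR adjusted p = 1.76e-09). Kcnmb4, the beta subunit best known from neurons, had 14.3, 16.0 and 17.5 CPM in the urethra and 5.42, 6.30 and 7.39 CPM in the bladder (1.35 ± 0.07, edgeR adjusted p = 3.77e-11). In neither gene did the tissues overlap. Kcnu1, the alkali-opened channel of sperm, was higher at 1.56 ± 0.18, with medians of 1.55 CPM in urethra and 0.479 CPM in bladder libraries. Kcnn4, the intermediate-conductance channel, was higher at 0.92 ± 0.14, with medians of 1.98 and 1.17 CPM in urethra and bladder, and its ranges overlapped. Kcnt1, a sodium-activated channel, was lower at -1.33 ± 0.24 (medians of 0.970 CPM in urethra and 2.17 CPM in bladder libraries). The small-conductance genes Kcnn1, Kcnn2 and Kcnn3 and the sodium-activated Kcnt2 did not pass the edgeR test, at log2 fold changes of 0.07, -0.08, -0.14 and -0.10. Of all members Kcnn2 had the smallest spread over the 4 groups, with 6.86, 7.79 and 9.27 CPM in urethra libraries and 6.76, 7.68 and 12.6 CPM in bladder libraries.

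The promoters of Kcnmb1 and of Kcnk10 are shown because these members had the greatest differences in either direction. RefSeq annotation of GRCm38.p6 gives the 250 bases before the start of Kcnmb1 at chr11:33962763-33963012 on the plus strand and those before 1 of 2 listed starts of Kcnk10 at chr12:98578214-98578463 on the minus strand. Capitals mark a GC box (GGGCGG on either strand).
Kcnmb1 promoter: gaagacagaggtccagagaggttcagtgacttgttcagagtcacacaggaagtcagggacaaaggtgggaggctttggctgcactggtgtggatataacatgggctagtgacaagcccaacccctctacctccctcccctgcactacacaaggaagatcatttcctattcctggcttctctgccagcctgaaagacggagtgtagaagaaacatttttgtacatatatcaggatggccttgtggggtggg
Kcnk10 promoter: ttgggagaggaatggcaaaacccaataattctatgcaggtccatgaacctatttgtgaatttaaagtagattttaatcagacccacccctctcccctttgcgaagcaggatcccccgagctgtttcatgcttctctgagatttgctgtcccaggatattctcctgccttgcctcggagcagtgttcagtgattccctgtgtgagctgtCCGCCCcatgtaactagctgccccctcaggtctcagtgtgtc
The Kcnmb1 stretch holds no GC box and no TATAAA, and the Kcnk10 stretch shown holds 1 GC box. The 250 bases before the other listed start of Kcnk10, at chr12:98575128-98575377, hold 0 GC boxes. In the RefSeq promoter table, which covers 250 bases before to 50 after a start, 74 windows of 51 members were listed. A GC box on either strand was found in 48.6% of these windows and in 35.7% of all 32851 windows, and TATAAA on either strand in 4.05% of members' windows and 13.6% of all windows. The CArG box, the recognition sequence of serum response factor, was found in 0 of the members' windows and in 1.63% of all windows, and the RE1 element in 0 and in 0.0244%. With shares this low, 0 in 74 windows of 51 members cannot show that the members lack these 2 elements or hold fewer of them.

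Inward rectifiers were mostly higher in the urethra, with 8 of 11 members higher, 2 lower and 1 not called. The ATP-sensitive channel is built of Kcnj8 or Kcnj11 pores and of sulfonylurea receptors encoded by Abcc9 and Abcc8. Kcnj8, the pore of the vascular and smooth muscle form, had 36.8, 45.1 and 53.7 CPM in urethra and 11.6, 14.9 and 20.2 CPM in bladder libraries, and every urethra library was above every bladder library (edgeR adjusted p = 4.64e-11). Kcnj11, the pore of the form known from pancreatic beta cells, had 1.11, 1.48 and 1.72 CPM in urethra and 0.341, 0.441 and 0.752 CPM in bladder libraries, again without overlap (1.5 ± 0.16, edgeR adjusted p = 2.44e-07). Both receptor genes were higher as well. Abcc9 had a log2 fold change of 1.11 ± 0.17, with 79.6, 94.4 and 145 CPM in urethra and 33.4, 38.8 and 83.0 CPM in bladder libraries, and Abcc8 one of 1.04 ± 0.20.

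Among the inward rectifiers opened by G proteins, the genes of a known heteromer were on opposite sides. Kcnj3 had 1.90, 3.22 and 5.40 CPM in urethra and 0.0487, 0.159 and 0.741 CPM in bladder libraries (3.76 ± 0.31, edgeR adjusted p = 8.45e-09). Kcnj5, its partner in the heart, had 0.318, 0.430 and 0.839 CPM in urethra and 1.83, 2.49 and 3.34 CPM in bladder libraries (-2.34 ± 0.16, edgeR adjusted p = 8.15e-10). Neither gene overlapped between the tissues. Kcnj16 and Kcnj10, whose products pair in glia and kidney tubules, were both higher, at 3.64 ± 0.40 and 2.56 ± 0.23. Kcnj15, an inward rectifier known from kidney epithelium, was lower, with 1.25, 3.34 and 6.46 CPM in urethra and 6.53, 15.9 and 24.2 CPM in bladder libraries (-2.16 ± 0.20, edgeR adjusted p = 5.53e-08). The classical strong rectifier Kcnj2 was higher at 0.77 ± 0.10, its relative Kcnj12 at 0.40 ± 0.13 and Kcnj14 at 0.26 ± 0.11. The call of Kcnj14 rested at an edgeR adjusted p of 0.0456, and it was lost without any 1 of male urethra replicates 2 or 4, female urethra replicates 2, 3 or 4, male bladder replicates 2 or 4, or female bladder replicates 1 or 2 (adjusted p = 0.0521 to 0.110). Kcnj4 was not called, at -0.53 ± 0.29.

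The 2-pore channels, which carry background potassium current, split evenly into 4 higher and 4 lower. Kcnk10, at chr12:98429437-98578310 on the minus strand, encodes a stretch- and lipid-gated channel. It had 5.32, 6.34 and 10.03 CPM in urethra and 0, 0.110 and 1.20 CPM in bladder libraries (5.0 ± 0.36, edgeR adjusted p = 2.39e-09). It had the highest log2 fold change and the largest spread over the 4 groups among the members. Its relative Kcnk2 was present at a higher level, with 24.9, 28.8 and 37.6 CPM in urethra and 6.54, 8.51 and 13.3 CPM in bladder libraries (1.79 ± 0.14). Kcnk9, an acid-sensitive channel of neurons, had 9.12, 18.7 and 28.4 CPM in urethra and 0.251, 0.973 and 3.15 CPM in bladder libraries (3.67 ± 0.37). Kcnk13, a halothane-inhibited channel, had medians of 1.48 CPM in urethra and 0.187 CPM in bladder libraries (2.95 ± 0.19). In none of these 4 genes did the tissues overlap.

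The other 2-pore genes went the other way. Kcnk3, an acid-sensitive channel of smooth muscle, had 17.9, 24.3 and 27.7 CPM in urethra and 34.4, 47.0 and 67.6 CPM in bladder libraries (-1.04 ± 0.13, edgeR adjusted p = 3.25e-06). Kcnk3 and Kcnk9, which resemble each other, thus differed in opposite directions. Kcnk1, a weak inward-rectifying 2-pore channel, had 9.81, 23.9 and 30.8 CPM in urethra and 23.7, 45.1 and 57.3 CPM in bladder libraries (-0.97 ± 0.16, edgeR adjusted p = 5.95e-05), and these ranges overlapped. Kcnk5, an alkali-opened channel of kidney, was lower at -0.75 ± 0.06, and Kcnk6 at -0.63 ± 0.08, both without overlap.

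**Figure D2:**
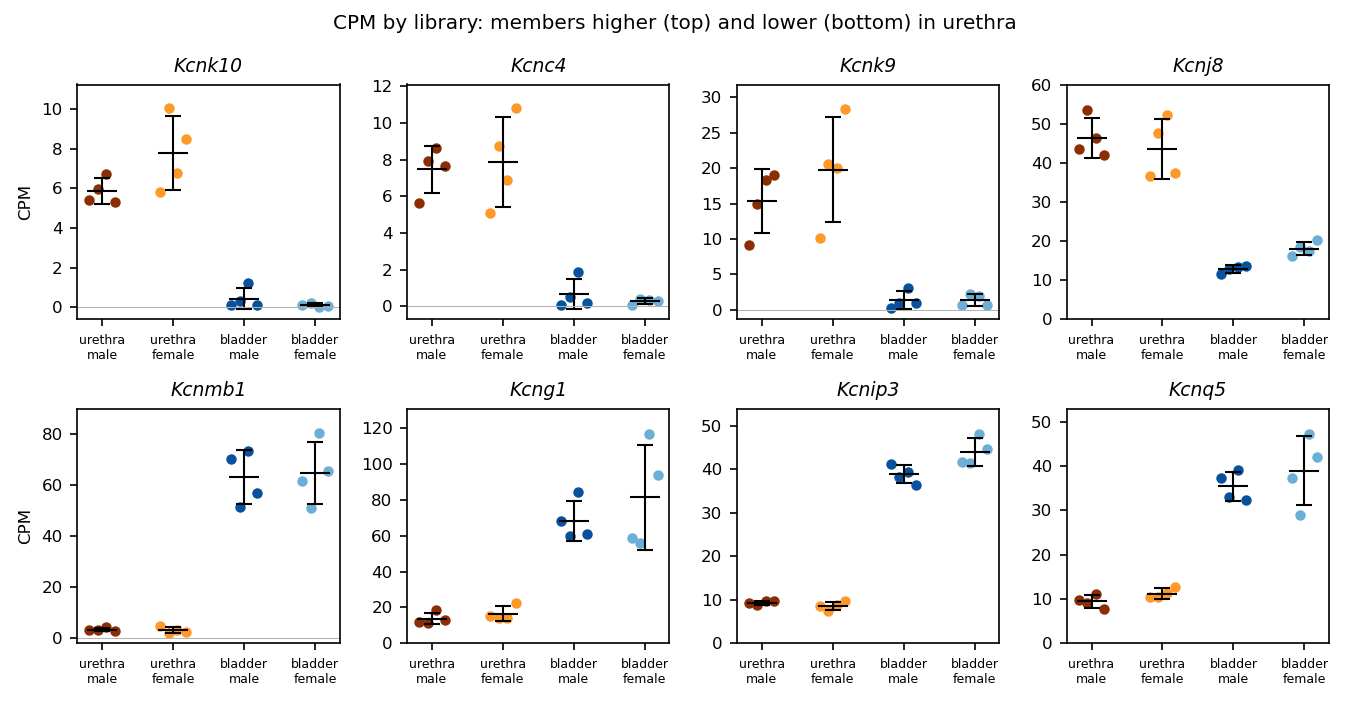
CPM of 8 members in each of the 16 libraries (points), with the mean and SD of each group of 4. Kcnk10, Kcnc4, Kcnk9 and Kcnj8 in the upper row were higher in every urethra library than in any bladder library, and Kcnmb1, Kcng1, Kcnip3 and Kcnq5 in the lower row were lower in every urethra library.

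Voltage-gated alpha subunits made up the largest class, with 21 of 36 members higher, 8 lower and 7 not called. Kcnq3, a subunit of the M-current of neurons, was higher at 2.00 ± 0.16. Kcnq1, known from heart and epithelia, was higher at 1.11 ± 0.12. Kcnq5, a channel of visceral and vascular smooth muscle, was lower, with 7.81, 10.4 and 12.8 CPM in urethra and 28.9, 37.4 and 47.3 CPM in bladder libraries (-1.85 ± 0.10, edgeR adjusted p = 4.66e-11). In none of these 3 genes did the tissues overlap.

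The Kcnc genes serve fast repolarisation in neurons. Kcnc4 had 5.11, 7.80 and 10.8 CPM in urethra and 0.0559, 0.336 and 1.85 CPM in bladder libraries (4.10 ± 0.37, edgeR adjusted p = 5.28e-08). Kcnc2 and Kcnc1 were also higher, at 2.23 ± 0.17 and 1.44 ± 0.24. Of the 6 shaker-type Kcna genes 5 were higher. Kcna4, which gives a fast inactivating current, had 5.38, 7.05 and 9.85 CPM in urethra and 0.351, 0.695 and 1.57 CPM in bladder libraries (3.32 ± 0.21, edgeR adjusted p = 4.05e-10). Kcna6 had medians of 38.1 CPM in urethra and 7.58 CPM in bladder libraries (2.46 ± 0.14). Kcna2 was higher at 2.32 ± 0.20 and Kcna3, known from lymphocytes, at 1.27 ± 0.21. Kcna5, a delayed rectifier of heart and smooth muscle, had 18.8, 21.5 and 24.3 CPM in urethra and 6.58, 9.02 and 11.3 CPM in bladder libraries (1.27 ± 0.09), again without overlap. Kcna1 was lower at -0.78 ± 0.16.

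The Kcnh genes, of the ether-a-go-go type, held 4 higher, 1 lower and 2 not called. Kcnh8 had 1.89, 2.58 and 3.21 CPM in urethra and 0.0537, 0.169 and 0.741 CPM in bladder libraries (3.39 ± 0.29, edgeR adjusted p = 1.43e-08). Kcnh6 and Kcnh7, relatives of the Kcnh2 gene of the heart's rapid delayed rectifier, were higher at 3.32 ± 0.30 and 2.83 ± 0.24, and Kcnh5 at 1.15 ± 0.18. Kcnh2 itself was among the most abundant members in both tissues and did not pass the test, with 45.6, 50.4 and 69.5 CPM in urethra and 45.9, 55.0 and 74.6 CPM in bladder libraries (-0.10 ± 0.11, edgeR adjusted p = 0.396). Kcnh3 was lower at -0.54 ± 0.12, and Kcnh1 was not called, at 0.05 ± 0.18. Of the Kcnd genes, which give transient outward current, Kcnd2 was higher at 2.08 ± 0.15, Kcnd3 lower at -0.82 ± 0.12 and Kcnd1 not called at -0.21 ± 0.11. The delayed rectifier Kcnb2 did not pass the edgeR test, at -0.13 ± 0.10.

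The silent subunits form no channel alone but modify delayed rectifiers such as Kcnb2, and 9 of them were members. Kcng1 had 11.5, 14.1 and 22.5 CPM in urethra and 56.1, 64.6 and 117 CPM in bladder libraries (-2.31 ± 0.17, edgeR adjusted p = 7.63e-09). Kcns3 was lower at -1.22 ± 0.12 and Kcng4 at -0.84 ± 0.24. Kcns2, Kcnv1, Kcns1 and Kcnf1 were higher, at 2.09 ± 0.21, 1.41 ± 0.14, 0.86 ± 0.17 and 0.46 ± 0.12. Kcng2 and Kcnv2 were not called, at -0.23 ± 0.19 and 0.32 ± 0.21.

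Of the 10 auxiliary members 5 were higher, 2 lower and 3 not called. Kcnip3, a calcium-binding partner of the Kcnd channels that is also known as a transcriptional repressor, had 7.54, 8.98 and 9.78 CPM in urethra and 36.4, 41.4 and 48.2 CPM in bladder libraries (-2.20 ± 0.06, edgeR adjusted p = 1.45e-14). Kcnip1 was higher at 0.51 ± 0.17, and Kcnip2 and Kcnip4 were not called, at 0.10 ± 0.16 and 0.22 ± 0.11. Kcne1, the partner of Kcnq1 in the slow cardiac current, had 0.175, 0.218 and 0.863 CPM in urethra and 1.92, 3.06 and 3.84 CPM in bladder libraries (-2.96 ± 0.26, edgeR adjusted p = 2.78e-08). Kcne4, an inhibitor of Kcnq1 and Kcna channels, had 14.97, 16.83 and 17.31 CPM in urethra and 3.69, 4.22 and 5.35 CPM in bladder libraries (1.93 ± 0.08, edgeR adjusted p = 1.70e-12). Both lay without overlap, on opposite sides, and Kcne3 was not called at 0.03 ± 0.12. The 3 cytoplasmic beta subunits of Kcna channels were all higher, Kcnab2 at 0.65 ± 0.07, Kcnab1 at 0.59 ± 0.14 and Kcnab3 at 0.44 ± 0.09.

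Some members lie next to each other in the genome. Kcnmb1 and Kcnip1 overlap on opposite strands of chromosome 11, and their log2 fold changes were -4.26 and 0.51; the counting used the strand. Kcnj16 and Kcnj2, 38.2 kb apart on chromosome 11, were at 3.64 and 0.77. Kcna3 and Kcna2, 63.1 kb apart on chromosome 3, were at 1.27 and 2.32. On chromosome 6 Kcna1 lies between Kcna5 and Kcna6, and their log2 fold changes were -0.78 for Kcna1, 1.27 for Kcna5 and 2.46 for Kcna6. In all, the spans of 14 members, introns included, overlap that of another gene on the same strand. The spans of 33 members overlap that of a gene on the opposite strand. Overlap of exons was not examined. The counting command in the file header sets no option to count read pairs that fall on more than 1 gene.

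Scaled by exon length (FPKM, CPM per kilobase of exon), the most abundant members differed between the tissues. In the urethra the order was Kcnj8 at 17.7, Kcnh2 at 11.1, Kcnk1 at 9.92, Kcna5 at 7.58, Kcna6 at 6.99 and Kcne4 at 6.18 FPKM. In the bladder it was Kcnk1 at 19.2, Kcng1 at 16.6, Kcnmb1 at 15.2, Kcnk3 at 12.2, Kcnh2 at 11.9 and Kcnip3 at 11.7 FPKM. Thus Kcnk1 and Kcnh2 were among the 6 highest of both tissues. Kcnmb1, at 0.786 FPKM, ranked 41st in the urethra, and Kcnj8, at 6.08 FPKM, ranked 7th in the bladder.

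Levels were summed by class, with all members and without the member whose mean FPKM differed most between the tissues. That member was chosen by this difference, so a shift of the sum away from its direction was fixed in advance. Inward rectifiers came to 26.5 ± 2.83 FPKM in urethra and 13.985 ± 1.044 FPKM in bladder libraries (SD, n = 8 each), but without Kcnj8 to 8.80 ± 1.06 FPKM in urethra and 7.91 ± 1.09 FPKM in bladder, with overlapping ranges. Calcium-activated subunits came to 14.9 ± 1.42 FPKM in urethra and 25.6 ± 3.95 FPKM in bladder, and without Kcnmb1 the direction turned, at 14.1 ± 1.46 FPKM in urethra and 10.4 ± 1.59 FPKM in bladder. It turned likewise for auxiliary subunits, which came to 17.1 ± 0.574 FPKM in urethra and 20.6 ± 0.800 FPKM in bladder, and without Kcnip3 to 14.6 ± 0.504 FPKM in urethra and 8.93 ± 0.479 FPKM in bladder. The 2-pore channels came to 29.9 ± 3.67 FPKM in urethra and 41.9 ± 5.10 FPKM in bladder, and without Kcnk1 to 19.98 ± 2.03 FPKM in urethra and 22.7 ± 3.26 FPKM in bladder. Voltage-gated alpha subunits came to 65.8 ± 7.96 FPKM in urethra and 62.7 ± 10.9 FPKM in bladder, and without Kcng1 to 62.4 ± 7.29 FPKM in urethra and 46.1 ± 6.38 FPKM in bladder. With all members the tissues overlapped in the voltage-gated sum alone, and without these 5 genes they overlapped in every class but the auxiliary one. No test was run on these sums.

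**Figure D3:**
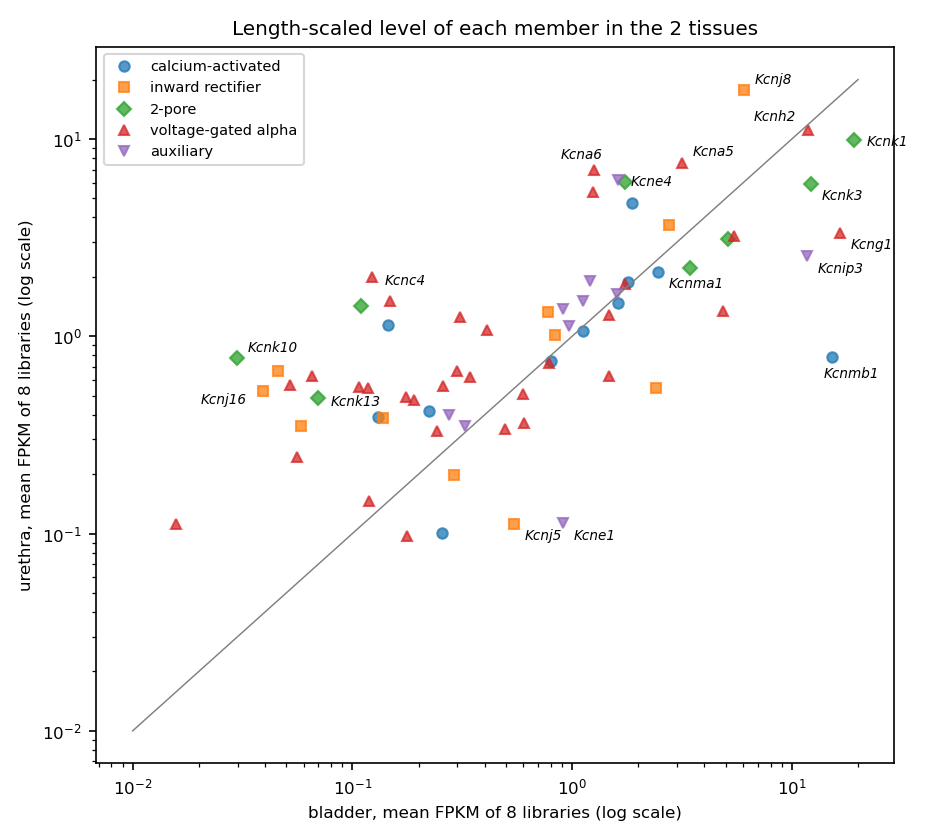
Mean FPKM of each of 72 members over 8 urethra libraries (vertical, log scale) against its mean over 8 bladder libraries (horizontal, log scale), with a symbol for each class and the line of equal level. Kcnj8 lies above the line at 17.7 FPKM in urethra and 6.08 FPKM in bladder, Kcnmb1 far below it at 0.786 and 15.2 FPKM, and Kcnh2 close to it at 11.1 and 11.9 FPKM.

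Genes of proteins that work with these channels were counted too. Of 10 channel partners outside the name pattern 8 were tested, and all 8 were higher in the urethra, among them Dpp10 at 4.07 ± 0.28 and Dpp6 at 2.47 ± 0.15, which escort Kcnd channels, Lrrc26 at 4.81 ± 0.35 and Lrrc55 at 1.30 ± 0.18, which modify Kcnma1 channels, and Amigo1 at 1.11 ± 0.07, a partner of Kcnb channels. Of 7 other potassium-permeable channel genes 3 were higher and 4 lower. The pacemaker gene Hcn4 was higher at 3.61 ± 0.22. Of 23 genes of calcium entry and release 15 were higher and 6 lower, with a median log2 fold change of 0.50. Of all tested genes 36.5% were higher and 38.5% lower. Cacna1c, the pore of the smooth muscle calcium channel, was lower at -0.94 ± 0.14, and Ryr2, the source of calcium sparks that open Kcnma1 channels, was not called at 0.07 ± 0.18.

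Some members and marker sums were high or low in the same libraries, and no association between them was tested. Male bladder replicate 3 was the bladder library highest in neuron markers and also in glia markers (96.9 CPM, against at most 71.1 CPM in the others). Among the 42 members higher in the urethra it was the highest bladder library in 22. For all genes higher in the urethra it was the highest bladder library in 24.8%. In that library Kcnc4 was at 1.85 CPM and Kcnk10 at 1.20 CPM, and the other bladder libraries had at most 0.535 CPM of Kcnc4 and 0.292 CPM of Kcnk10. Without the male libraries of litter 3 in both tissues, the log2 fold change was 5.66 for Kcnk10, 4.74 for Kcnc4 and 4.39 for Kcnj3, and 41 members were higher and 19 lower. Glia markers (6 of 6 higher) summed to 134 to 172 CPM in urethra and 50.6 to 96.9 CPM in bladder libraries, and skeletal muscle markers (7 higher and 1 lower of 8) to 116 to 203 CPM and 40.9 to 67.5 CPM. Of 5 mesothelium markers 4 were lower in the urethra, and of 6 endothelium markers all were higher. Pericyte markers were mixed, with 2 higher and 3 lower of 5. So were interstitial and fibroblast markers, with 3 higher and 2 lower of 6. Of 5 immune markers 3 were higher and 0 lower. Kcnmb1 and all smooth muscle markers were lower in the urethra, and Kcnk1 and Kcnj15 were low in the female libraries 3 and 4 of both tissues, which were also the lowest in epithelium markers. What part these cell types had in the differences was not tested.

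**Figure D4:**
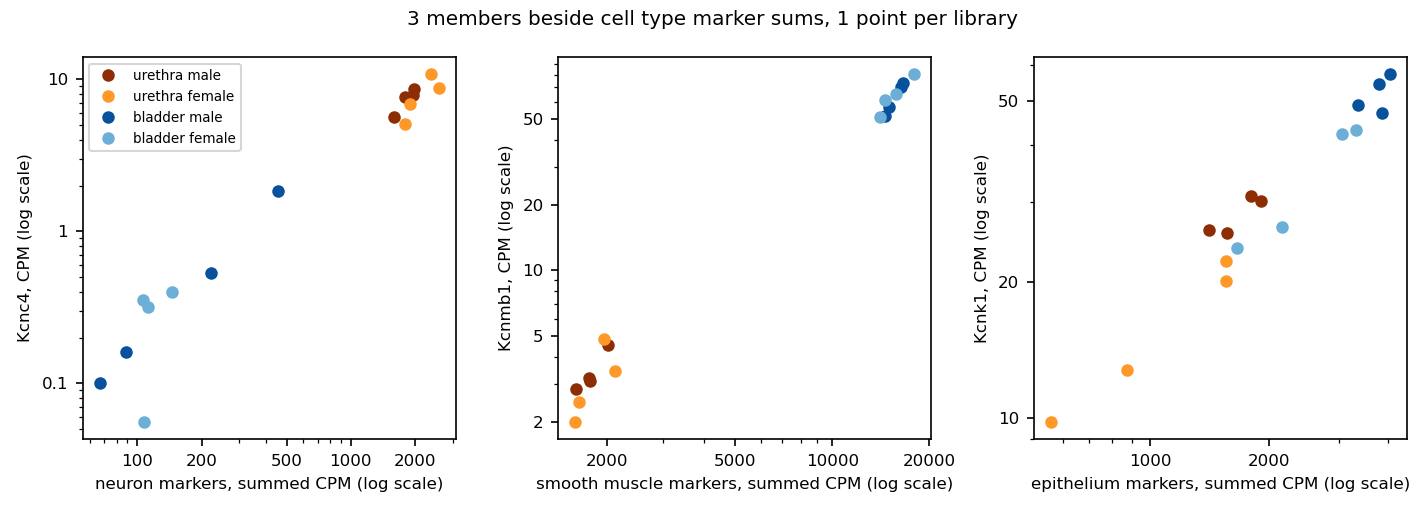
CPM of Kcnc4, Kcnmb1 and Kcnk1 (vertical, log scale) against the summed CPM of neuron, smooth muscle and epithelium markers (horizontal, log scale), with 1 point for each of the 16 libraries. Male bladder replicate 3 lies between the tissues in the neuron panel, at 456 CPM of markers and 1.85 CPM of Kcnc4, and the female urethra libraries 3 and 4 have the lowest Kcnk1, at 12.8 and 9.81 CPM.

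The tissue difference was similar in count in both sexes. In males 39 members were higher in the urethra (31.4% of all tested genes) and 18 lower (32.6%). In females 40 were higher (32.6%) and 17 lower (33.1%). In both sexes 37 members were higher (28%) and 16 lower (28.7%), and none was called in opposite directions (0.197%). In males alone 4 members were called (7.11%), Kcnj14 and Kcnf1 as higher and Kcnb2 and Kcng4 as lower. In females alone 4 were called (8.87%), Kcnj12, Kcnab1 and Kcnip1 as higher and Kcnh3 as lower. The difference between the sexes in the tissue effect was tested as the interaction. No member passed it by the edgeR test, where 0.537% of all genes were higher and 0.131% lower, and none passed by DESeq2. At an unadjusted p under 0.05 there were 13 members (8.38% of all genes). Kcnk13, with a tissue effect of 3.80 in males and 2.09 in females, and Kcnj8, with 1.85 and 1.27, had the smallest unadjusted p-values (edgeR adjusted p = 0.119 and 0.156). Without female bladder replicate 3, Kcnd2 passed at an interaction of 1.05 (edgeR adjusted p = 0.0410).

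Between males and females, 6 of 76 members differed in the urethra (7.89%), near the share of all tested genes (6.39%). By the edgeR test 5 were higher in male urethra (6.58%, against 3.97% of all tested genes) and 1 was lower (1.32%, against 2.42%). By the same test 25 members had an unadjusted p under 0.05 (32.9%, against 19.2%). Of these 10 were higher in males (13.2%, against 9.84% of all tested genes) and 15 lower (19.7%, against 9.32%). Kcnj16 had 3.06, 3.08, 4.71 and 2.94 CPM in male urethra libraries of litters 1 to 4 and 0.635, 0.441, 0.581 and 1.11 CPM in female urethra libraries. Every male library was above every female one, and the log2 fold change of male over female was 2.30 ± 0.33 (edgeR adjusted p = 3.28e-04). In the bladder the same gene averaged 0.254 ± 0.217 CPM in the male and 0.0554 ± 0.0457 CPM in the female libraries (SD over 4 libraries). At these low levels its log2 fold change of 2.16 ± 0.90 (SE) was not called (edgeR adjusted p = 0.332). The interaction for Kcnj16 was 0.14 (edgeR adjusted p = 0.998).

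The other members called between the sexes in the urethra differed less. Kcnk5 had 13.3, 12.4, 11.5 and 12.6 CPM in male and 10.04, 8.02, 8.39 and 8.36 CPM in female urethra libraries, without overlap (0.51 ± 0.09, edgeR adjusted p = 0.00132). Kcnd3 had 41.6, 38.2, 35.9 and 38.5 CPM in male and 17.7, 17.9, 26.7 and 29.5 CPM in female urethra libraries, also without overlap (0.75 ± 0.17, edgeR adjusted p = 0.0133). Kcnk5 and Kcnd3 were thus lower in urethra than in bladder and, within the urethra, higher in males. Kcna1 had 2.07, 2.45, 2.49 and 1.90 CPM in male and 1.05, 0.842, 1.42 and 1.62 CPM in female urethra libraries (0.84 ± 0.22, edgeR adjusted p = 0.0314). Kcnj15 had 4.10, 3.57, 4.67 and 6.46 CPM in male and 3.11, 2.33, 2.03 and 1.25 CPM in female urethra libraries (1.10 ± 0.30, edgeR adjusted p = 0.0347). Kcnb2 was lower in males, with 7.95, 8.88, 10.1 and 9.05 CPM in male and 10.4, 12.95, 13.2 and 16.1 CPM in female urethra libraries (-0.55 ± 0.14, edgeR adjusted p = 0.0279). In none of these genes did the sexes overlap in the urethra. They were called on these same libraries, so the lack of overlap adds no support of its own. The share of all tested genes without overlap between male and female libraries was not computed for either tissue.

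**Figure D5:**
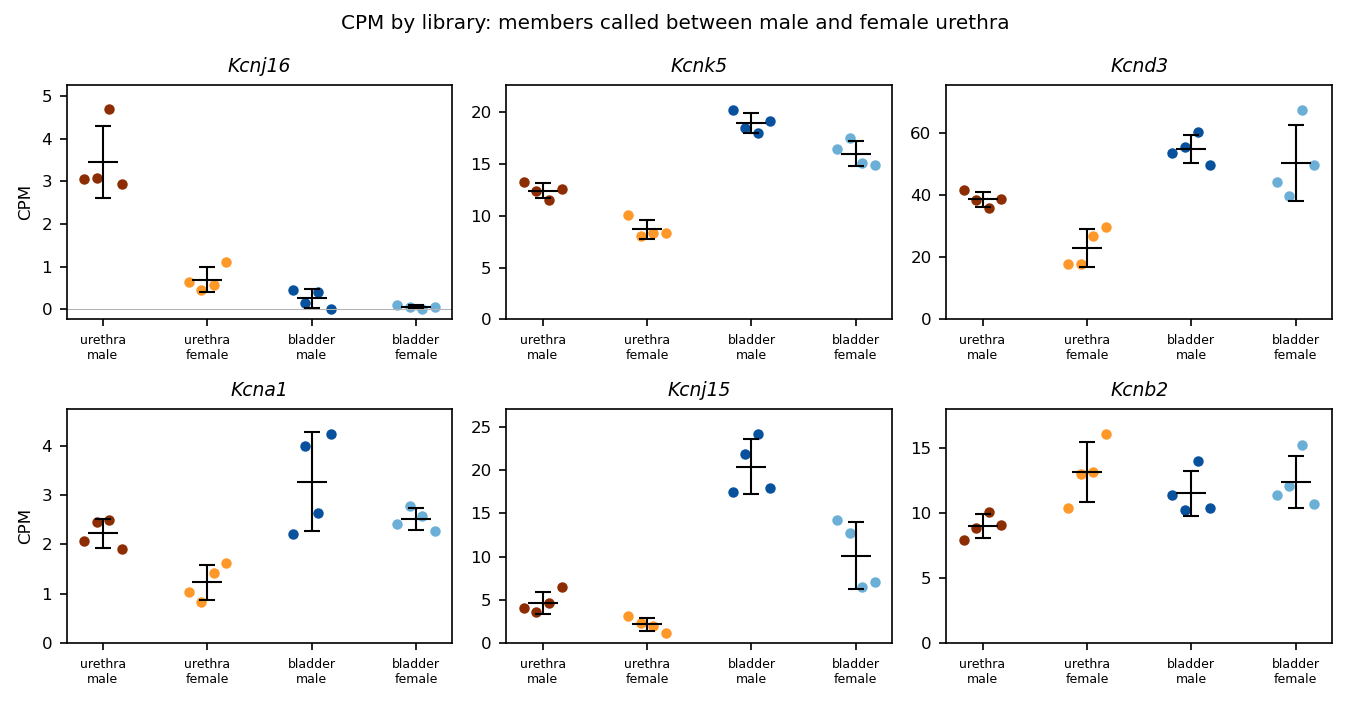
CPM in each of the 16 libraries (points), with the mean and SD of each group of 4, for the 6 members called between male and female urethra. Kcnj16 averaged 3.45 CPM in male and 0.693 CPM in female urethra, and Kcnb2 alone was lower in males, at 9.0 and 13.2 CPM.

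These sex calls were less stable than the tissue calls. Kcnj16 and Kcnk5 remained past the threshold in all 22 alternatives tried, and Kcnd3 in 21. Kcna1 was lost without male urethra replicate 1, 2 or 3 or without female urethra replicate 1, 2 or 3 (edgeR adjusted p = 0.0534 to 0.0881). Kcnb2 was lost without male urethra replicate 1, 2 or 4 or female urethra replicate 3 or 4 (0.0674 to 0.111). Kcnj15 was lost without male urethra replicate 1, 3 or 4 or female urethra replicate 2, 3 or 4 (0.0544 to 0.132). Without both female urethra libraries that were lowest in epithelium markers, replicates 3 and 4, Kcnj15 had 0.78 (edgeR adjusted p = 0.392) and Kcnb2 -0.38 (0.366). With the litter as a replicate block, 6 members were higher and 5 lower in male urethra. Of all genes called in this comparison 57.1% were higher with the block and 62.1% without it. The share of all tested genes called with the block is not given here. Kcnd2 and Kcnk1 were added as higher at 0.66 and 0.85, Kcnh1, Kcnma1 and Kcns2 were among those added as lower at -0.65, -0.62 and -0.75, and Kcnj15 was lost (edgeR adjusted p = 0.0504).

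In the bladder no member passed the edgeR test between males and females, while 0.247% of all genes passed as higher and 0.334% as lower in males. Of the members 13 had an unadjusted p under 0.05 (12.4% of all genes). By DESeq2 Kcnj15 was higher at 1.00 (adjusted p = 0.0111) and Kcnj8 lower at -0.51 (adjusted p = 0.00959). Kcnj8 had 11.6, 12.8, 13.5 and 13.6 CPM in male and 16.3, 18.4, 17.5 and 20.2 CPM in female bladder libraries, without overlap, and by edgeR its difference was -0.49 ± 0.12 (adjusted p = 0.0702). With the litter as a replicate block Kcnj8 passed (-0.49, edgeR adjusted p = 0.0455). Kcnj15 had 17.5, 21.9, 24.2 and 17.99 CPM in male and 14.2, 12.7, 6.53 and 7.06 CPM in female bladder libraries (1.01 ± 0.26, edgeR adjusted p = 0.0860). The sum of epithelium markers was 3362 to 4048 CPM in the male and 1655 to 3313 CPM in the female bladder libraries, with replicates 3 and 4 of the females the lowest in these markers and in Kcnj15, and the part of epithelial cells in the difference was not tested.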

How the data were processed

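The authors deposited raw counts of read pairs per gene symbol for all 16 libraries, together with an exon length for each symbol. Per the submitters' processing notes the alignment used HISAT2 2.1.0 and GRCm38. Per the file headers the counting used featureCounts of Subread 1.6.3 on duplicate-marked alignments, with strand setting 2. No source used here names the annotation release. A deposited table of normalized values was not used.

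All statistics come from R 4.3.3. The edgeR (4.0.16, with limma 3.58.1) quasi-likelihood test with TMM scaling, filterByExpr and robust fits was run on 18254 genes in 1 fit of the 4 groups, adjusted by Benjamini-Hochberg over all of them. CPM are based on TMM-scaled totals, and FPKM divide CPM by the deposited exon length in kilobases. The SE of a log2 fold change is an approximation, its size divided by the square root of the F statistic. On simulated counts of 17921 genes for urethra against bladder, the fit recovered 91.9% of 197 genes changed 2-fold, with 3 false calls. In this simulation few genes changed, in both directions alike, and litters were not modelled. In the data 75% of tested genes differed between the tissues, so these rates may not hold for them. Figures were made in Python 3.11.15 (matplotlib 3.10.9, pandas 2.3.3).

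No libraries were copies of each other: in 24 within-group pairs, chi-squared divided by its degrees of freedom was 4.55 to 34.0. Replicate numbers mark litters, per the labels, and so pair the libraries. Deviations from the group means correlated at 0.092 to 0.409 between urethra and bladder of 1 litter and sex (over 0.1 in 7 of 8 pairs), and at -0.047 to 0.265 between males and females of 1 litter and tissue (4 of 8 pairs). Each library of a group came from another litter.

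The members, the markers and the partner genes were chosen with earlier results of these data known. Members named with values were the 12 highest and 12 lowest of those called between the tissues, those called between the sexes or in the interaction (up to 10 each by p), 16 genes listed whatever their result, the 3 on either side of the CPM minimum, the 6 of highest FPKM per tissue, and those of largest and smallest spread. Of the others, Kcnmb4 and Kcnu1 are given with levels, chosen after their values were seen, and the rest by fold change. A few members and 1 other gene are not reported here, although the counts include them. Alternatives were DESeq2 (1.42.0) size factors and its Wald test, library totals, no low-count filter, replicate blocks, other membership minimums, and leaving out libraries. The fit without the male libraries of litter 3, and class sums without the member that differed most, were chosen after seeing the data.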

Additional observations from a re-analysis of the deposited data

Results flagged for a closer look

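Among 44 named members in 4 groups, 8 of 176 groups held 1 library whose distance from the other 3 exceeded Dixon's critical value, and chance flags about 1 in 20 groups. In the urethra, Kcnj16 in male replicate 3 was high at 4.71 CPM (others 2.94 to 3.08), Kcne1 in female replicate 1 was high at 0.635 CPM (others 0.194 to 0.236), Kcnh6 in female replicate 1 was low at 1.56 CPM (others 2.37 to 2.53), and Kcns3 in male replicate 4 was low at 1.42 CPM (others 1.92 to 2.03). In the bladder, Kcnc4 and Kcna4 in female replicate 1 were low at 0.0559 and 0.392 CPM (others 0.319 to 0.398 and 0.682 to 0.743), Kcnj5 in female replicate 3 was high at 3.34 CPM (others 2.33 to 2.44), and Kcnj4 in male replicate 3 was low at 0.231 CPM (others 0.698 to 0.730).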

How the results depend on the processing

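Of the 60 tissue calls all but Kcnj14 were kept under each alternative tried with the minimum of 0.5 CPM, and no tested result reversed. Without the member that differed most, summed FPKM (urethra minus bladder) turned to 3.67 for calcium-activated and 5.67 for auxiliary members. With library totals alone the median log2 fold change of all genes shifted by 0.136, the share of higher among all called genes was 60.8% in place of 48.7%, and the members' median was 0.617, against 0.48 with TMM; relative to all genes it was 0.507 with library totals and 0.508 with TMM. Leaving out 1 library at a time, 41 to 44 members were higher and 18 to 19 lower in the urethra, 39 to 41 and 16 to 18 in males, and 40 to 42 and 17 in females. Kcnip4 was also called higher in 9 alternatives and Kcnj4 lower in 4, and Kcnn1, Kcnv2 and Kcnd1 were called in 1 each. Between male and female urethra the counts of 5 higher and 1 lower were less steady. Leaving out 1 library gave 3 to 9 higher and 0 to 3 lower; 9 came without female bladder replicate 3 and 3 without male urethra replicate 1 or female urethra replicate 3. The single lower call was lost without male urethra replicate 1, 2 or 4 or female urethra replicate 3 or 4, while 3 were lower without female urethra replicate 1 or male bladder replicate 3, and 2 without male bladder replicate 2 or female bladder replicate 3. No filter gave 3 higher. DESeq2 size factors and the DESeq2 Wald test gave 2 lower each, the litter as a replicate block 5 lower, and omission of female urethra replicates 3 and 4 gave 0 lower. In the bladder the DESeq2 Wald test gave 1 higher and 1 lower, and the replicate block and the omission of those female urethra libraries 1 lower each, against 0 by edgeR without a block. For the interaction, leaving out 1 library gave 0 to 1 higher (1 without female bladder replicate 3). The cause of these changes was not tested. The replicate block by litter, or by litter and sex, ended no tissue call. Members near the CPM minimum rest on few counts, so a difference in them may not be detectable at this depth.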
